A study of Mus musculus with 9 samples.

Results

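Nephron progenitors are the self-renewing mesenchymal cells that cap the tips of the branching ureteric bud in the developing kidney and give rise to every nephron. Some leave the cap in each round of branching, form a pretubular aggregate and then a renal vesicle, while the rest stay in the cap under the control of a small set of transcription factors. Surrounding *Foxd1*+ stromal progenitors signal to the cap, and *Ntn1* encodes netrin-1, a secreted guidance cue made by that stroma. The 9 regulators described here were *Six2*, *Cited1*, *Osr1*, *Eya1*, *Sall1*, *Meox1*, *Pax2*, *Tmem100* and *Uncx*. They were taken by gene name, and each matched 1 of the 24138 loci in the expression table.

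RNA was sequenced from whole mouse kidneys at E15.5, with 3 libraries for each of 3 genotypes on a C57Bl6/J background. The 3 genotypes came from the same 3 crosses of Ntn1fl/fl with Foxd1GC/+;Ntn1fl/+ mice, and the cross of each library was not labelled. MUT kidneys were Foxd1GC/+;Ntn1fl/fl, HET kidneys were Foxd1GC/+;Ntn1fl/+ and WT kidneys were Ntn1fl/fl without Cre, so every animal carried at least 1 floxed *Ntn1* allele. GC is a GFP-Cre inserted in the *Foxd1* locus, so Cre acts in *Foxd1*+ stromal progenitors and their descendants, and MUT and HET kidneys have 1 intact *Foxd1* allele while WT kidneys have 2. MUT against HET compares *Ntn1* loss at equal Cre dose, and MUT against WT compares both changes at once. In whole kidneys, fewer cells of a type and less RNA per cell cannot be told apart.

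Values are FPKM, fragments scaled to transcript length and to the mapped fragments of the library. Library totals ran from 453753 to 545598 FPKM, and relative depth, estimated from the steps between low values, ran from 0.570 (WT-2) to 1.27 (MUT-1) times that of WT-1. *Ntn1* measured 26.1, 28.9 and 17.8 FPKM in WT, 12.3, 12.0 and 16.5 FPKM in HET and 10.8, 16.5 and 11.0 FPKM in MUT. Both Cre genotypes were below WT in every library, with a log2 fold change of -0.87 (SE 0.20) for MUT against WT and -0.78 (SE 0.18) for HET against WT, while MUT and HET overlapped (log2 fold change -0.10, SE 0.17). These values cover the whole locus in all kidney cells, so they do not measure the deletion in stroma directly. *Foxd1* was 31.0±4.46 FPKM in WT (mean±s.d., n=3), 21.1±0.801 FPKM in HET and 23.9±1.22 FPKM in MUT. Its log2 fold change was -0.52 (SE 0.12) for HET against WT (limma unadjusted p = 0.00167, adjusted p = 0.998). For MUT against WT it was -0.35 (SE 0.13, limma unadjusted p = 0.0250, adjusted p = 0.9998). Neither *Foxd1* nor *Ntn1* passed limma after adjustment over all loci in either comparison with WT, although the genotypes differ at these loci by design. One library stood apart: 10 liver marker genes summed to 860 FPKM in HET-2 and to 35.1 to 61.9 FPKM in the other 8 libraries, led by *Alb* at 244 FPKM against 0.213 to 4.77 FPKM. The red cell markers were also highest in HET-2, at 3448 FPKM against 1861 to 2256 FPKM.

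Promoter sequences are shown for 3 members, *Six2* and *Uncx* because their levels moved together most closely across libraries, and *Cited1* because it is X-linked and marks the least committed progenitors. RefSeq (GRCm38.p6) gave an entry for 5 of the 9 members (*Six2*, *Cited1*, *Sall1*, *Pax2*, *Uncx*), covering 250 bases before to 50 bases after each start, and none was listed for *Osr1*, *Eya1*, *Meox1* or *Tmem100*. Those of *Six2* (chr17:85688205-85688504, minus strand), *Uncx* (chr5:139543648-139543947, plus strand) and the first of 3 listed for *Cited1* (chrX:102252132-102252431, minus strand) read 5′ to 3′ as below, with capitals marking matches, on either strand, to the TATA box TATAAA, to the CCAAT box, to TGATAC as a core of sites for Six2 and its relatives, and to CTTTG as a core of sites for TCF/LEF proteins.
Six2: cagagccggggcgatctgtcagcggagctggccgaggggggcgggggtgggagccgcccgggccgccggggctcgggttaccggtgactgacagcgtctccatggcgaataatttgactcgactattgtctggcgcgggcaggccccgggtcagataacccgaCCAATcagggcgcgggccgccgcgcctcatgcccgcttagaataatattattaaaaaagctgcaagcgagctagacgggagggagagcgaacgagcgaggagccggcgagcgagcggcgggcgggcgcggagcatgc
Uncx: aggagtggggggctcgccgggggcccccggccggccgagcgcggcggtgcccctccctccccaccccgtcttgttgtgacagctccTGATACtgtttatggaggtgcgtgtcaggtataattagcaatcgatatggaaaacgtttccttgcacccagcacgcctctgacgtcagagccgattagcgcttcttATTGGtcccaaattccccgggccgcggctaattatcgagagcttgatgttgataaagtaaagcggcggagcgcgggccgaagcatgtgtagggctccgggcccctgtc
Cited1: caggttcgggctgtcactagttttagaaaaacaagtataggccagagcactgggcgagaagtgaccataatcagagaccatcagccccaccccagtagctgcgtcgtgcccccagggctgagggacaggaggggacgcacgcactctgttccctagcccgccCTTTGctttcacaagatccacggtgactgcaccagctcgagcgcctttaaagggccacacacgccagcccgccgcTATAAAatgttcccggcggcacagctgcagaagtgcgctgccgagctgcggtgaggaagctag
*Six2* held 1 CCAAT, *Uncx* held 1 CCAAT read on the opposite strand and 1 TGATAC, and *Cited1* held 1 TATAAA and 1 CTTTG. Among all 32851 RefSeq promoters, TATAAA was in 13.6%, CCAAT in 37.4%, TGATAC in 5.46% and CTTTG in 53.9%, so all but TGATAC are common in windows of this length. No match overlapped another. GC content was 67.3% for *Six2*, 60.7% for *Uncx* and 59.7% for *Cited1*, above the median of 52.7% over all promoters. A match is a string of letters, not a measured binding site.

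*Six2* and *Cited1* were the most abundant members. *Six2*, the homeodomain factor that keeps progenitors self-renewing (chr17:85684267-85688254), measured 81.2, 87.9 and 57.8 FPKM in WT, 95.6, 79.4 and 82.3 FPKM in HET and 95.5, 89.7 and 107 FPKM in MUT. All 3 MUT libraries were above all 3 WT libraries, and MUT and HET overlapped. *Cited1*, a transcriptional co-regulator of the earliest progenitors (chrX:102247377-102252181), measured 73.4, 103 and 79.5 FPKM in WT, 109, 105 and 88.0 FPKM in HET and 82.1, 79.9 and 121 FPKM in MUT. All groups overlapped, and the highest *Cited1* library was MUT-3. *Xist*, which is expressed in female cells, was at 187 FPKM in HET-3 and 173 FPKM in MUT-1 and at or under 1.25 FPKM in the other 7 libraries, so 1 HET and 1 MUT library and no WT library were from females, and the part of this in the X-linked *Cited1* values was not tested.

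The partners of *Six2* in the progenitor network were lower in abundance. *Osr1*, a zinc finger factor of the early kidney field (chr12:9574441-9581500), measured 13.1, 14.8 and 11.4 FPKM in WT, 17.4, 17.1 and 16.1 FPKM in HET and 15.2, 12.6 and 18.0 FPKM in MUT. Every HET library was above every WT library, and MUT libraries spread across both. *Eya1*, a phosphatase that acts as a co-activator of Six2 and its relatives (chr1:14168957-14310199), ranged from 17.4 to 24.1 FPKM with means of 20.4±0.789 FPKM in WT and 19.8±2.62 FPKM in HET, and measured 21.5, 17.4 and 24.1 FPKM in MUT. *Sall1*, a zinc finger factor required for kidney outgrowth (chr8:89027242-89044162), had means of 48.1±8.82, 49.7±1.59 and 49.2±9.24 FPKM in WT, HET and MUT. For both genes the groups overlapped in every comparison.

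*Pax2*, a paired-box factor of both the cap mesenchyme and the ureteric bud (chr19:44757393-44837869), measured 63.2, 56.8 and 37.0 FPKM in WT, 47.6, 36.2 and 48.8 FPKM in HET and 68.6, 43.9 and 62.6 FPKM in MUT. It had the widest spread of the 9 members, 1.90-fold from HET-2 to MUT-1. *Uncx*, a homeobox factor (chr5:139543897-139548178), measured 47.2, 56.4 and 35.7 FPKM in WT, 63.3, 45.7 and 44.9 FPKM in HET and 53.3, 49.0 and 67.3 FPKM in MUT. *Meox1*, a homeobox factor of the cap mesenchyme (chr11:101877509-101894354), stayed between 8.54 and 13.1 FPKM in all 9 libraries. *Tmem100*, a small transmembrane protein also known from blood vessel endothelium (chr11:90030347-90036505), measured 10.1, 12.4 and 13.0 FPKM in WT, 13.5, 13.2 and 12.1 FPKM in HET and 10.3, 10.5 and 11.9 FPKM in MUT. Each MUT library was below each HET library, and WT libraries spread across both.

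**Figure D1:**
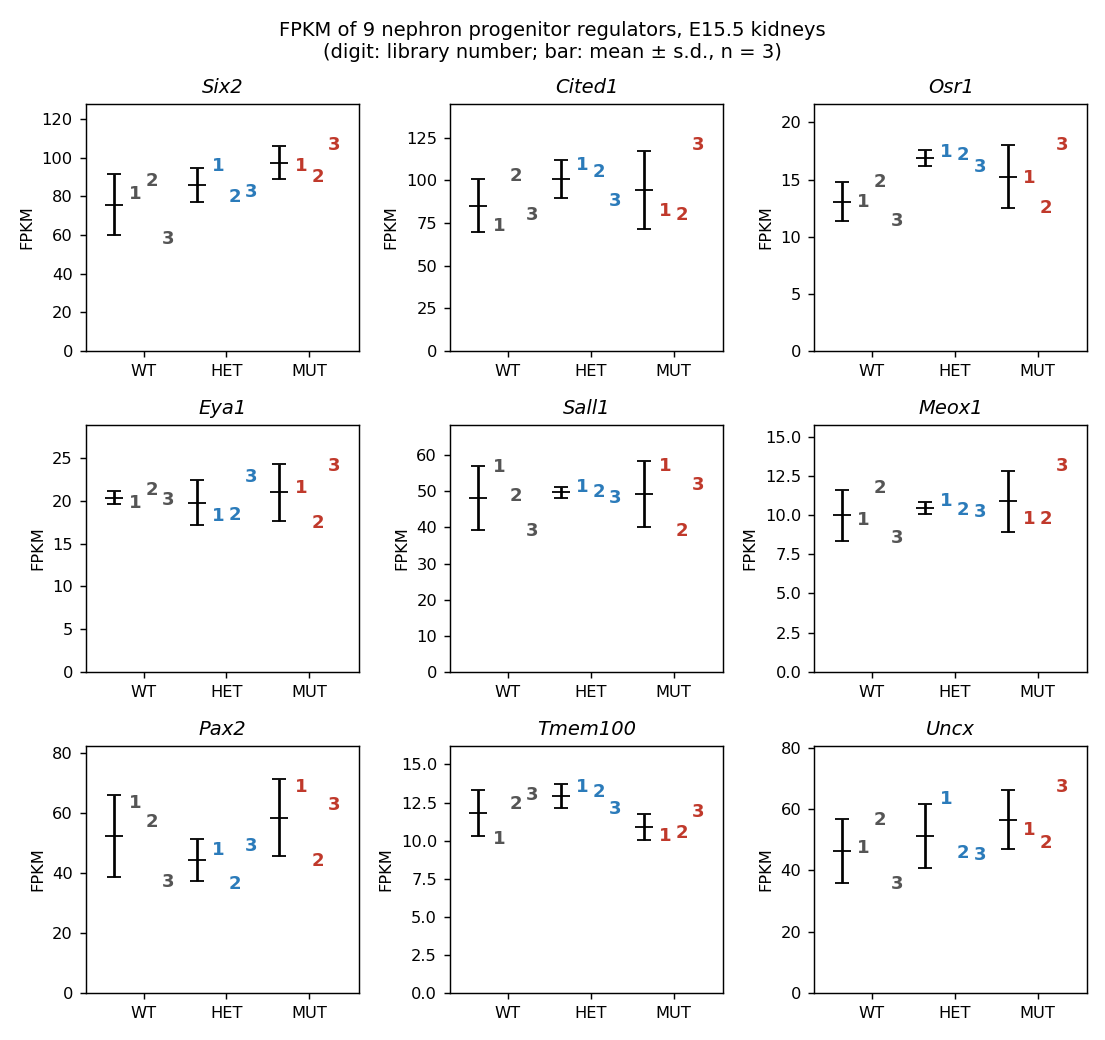
FPKM of each of the 9 regulators (vertical axes, from 0) in WT, HET and MUT kidneys, where each digit is a library and each bar is the mean±s.d. of 3 libraries. The groups overlap in most panels, and MUT-3 is the highest point for 6 of the 9 genes.

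On the FPKM scale, which is per length, the order in WT was *Cited1*, *Six2*, *Pax2*, *Sall1*, *Uncx*, *Eya1*, *Osr1*, *Tmem100* and *Meox1*. Neighbours among the first 5 overlapped, *Eya1* lay below all 5 and above *Osr1* without overlap, and *Osr1*, *Tmem100* and *Meox1* overlapped their neighbours. In HET, *Cited1* and *Six2* were separate from *Uncx*, *Sall1* and *Pax2*, and each of the 4 lower genes was separate from the gene above it. In MUT, *Six2* (97.3±8.53 FPKM) and *Cited1* (94.3±23.0 FPKM) changed places but overlapped.

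Comparing MUT with HET, no regulator passed limma at an adjusted p of 0.05. That does not show the regulators to be unchanged, since *Foxd1* and *Ntn1* did not pass against WT either. All 9 passed the minimum of 5 FPKM in either group and were among 10081 loci tested, of which 0 were called (0%) and 636 had an unadjusted p under 0.05 (6.31%), none of them a member. *Six2* had a log2 fold change of 0.18 (SE 0.13), with a 95% interval of 0.935- to 1.37-fold, and *Cited1* of -0.12 (SE 0.17), with an interval of 0.714- to 1.19-fold. The largest difference was in *Pax2*, at 0.38 (SE 0.18, 0.995- to 1.70-fold, unadjusted p = 0.0536, limma adjusted p = 0.738), with HET-2 its lowest library. It was 0.24 without HET-2, 0.25 without MUT-1, 0.57 without MUT-2 and 0.31 after GC correction. *Tmem100* was at -0.23 (SE 0.10, 0.726- to 1.00-fold, unadjusted p = 0.0507, limma adjusted p = 0.738) and -0.22 without HET-2. It was the 1 member whose groups did not overlap, against 4.5% of loci with MUT below HET and 5.19% with MUT above, and the exact two-sided permutation test gave p = 0.1, the smallest that 3 against 3 libraries allow. *Osr1* (-0.15, SE 0.13), *Uncx* (0.14, SE 0.16), *Eya1* (0.08, SE 0.14), *Meox1* (0.04, SE 0.13) and *Sall1* (-0.03, SE 0.14) had intervals that all lay between 0.742- and 1.41-fold. *Uncx* was at 0.021 after GC correction, and leaving out 1 library moved it between 0.013 (without MUT-3) and 0.30 (without HET-1).

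Across the members, 5 of 9 had log2 fold changes above 0 in MUT against HET, or 6 after quantile rescaling or GC correction, where *Sall1* changed sign, with a median of 0.04 against -0.02 for all loci tested. The counts and sizes depended on single MUT libraries. Without MUT-3, *Eya1* and *Meox1* fell below 0, so that 3 members were above 0 and 6 below, with *Cited1* at -0.31 (limma adjusted p = 0.266), *Osr1* at -0.27 (adjusted p = 0.265) and *Tmem100* at -0.29 (adjusted p = 0.225), the lowest adjusted p of any member in any setting. Without MUT-2, 6 were above 0 with a median of 0.13, and *Cited1* was at -0.010 and *Osr1* at -0.027.

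**Figure D2:**
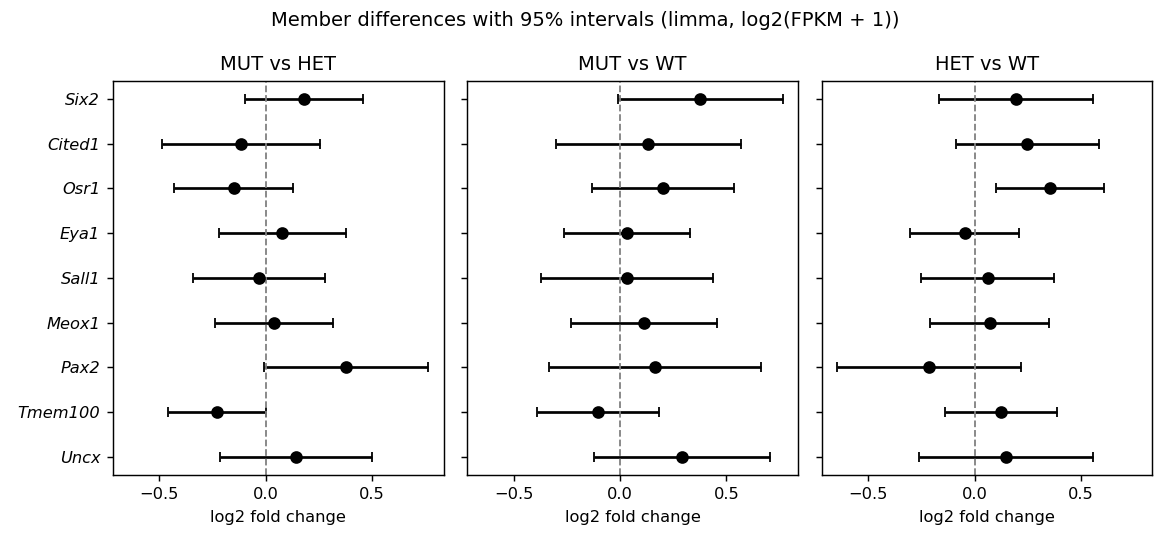
Log2 fold change on the log2(FPKM + 1) scale (horizontal axis) of each regulator in MUT vs HET, MUT vs WT and HET vs WT, with 95% limma intervals. All intervals include 0 except that of *Osr1* in HET vs WT.

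The 3 comparisons share libraries, since each genotype enters 2 of them. Comparing MUT with WT, 0 of 10096 loci were called (0%) and 65 had an unadjusted p under 0.05 (0.644%), again none of them a member. *Six2* had the largest difference of the 9, at 0.38 (SE 0.17, 0.993- to 1.70-fold, limma unadjusted p = 0.0552), and its groups did not overlap (exact permutation p = 0.1), against 1.32% of loci with MUT above and 1.34% with MUT below WT. The difference was 0.20 without WT-3, the lowest *Six2* library, and 0.32 after GC correction. *Uncx* (0.29, SE 0.19), *Osr1* (0.20, SE 0.15), *Pax2* (0.16, SE 0.22), *Cited1* (0.13, SE 0.19) and *Meox1* (0.11, SE 0.15) were above 0, *Sall1* and *Eya1* were both at 0.03 (SE 0.18 and 0.13), and *Tmem100* was at -0.10 (SE 0.13). This made 8 of 9 above 0, against 48.7% of all loci, but 4 of 9 without MUT-3 and 6 of 9 without WT-3.

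Comparing HET with WT, 0 of 10105 loci were called (0%) and 108 had an unadjusted p under 0.05 (1.07%), among them 1 member, *Osr1*. *Osr1* was 16.9±0.679 FPKM in HET and 13.1±1.70 FPKM in WT, a log2 fold change of 0.35 (SE 0.11, 1.28-fold, interval 1.07- to 1.52-fold, unadjusted p = 0.0112, limma adjusted p = 0.998). Its groups did not overlap (exact permutation p = 0.1), against 2.15% of loci with HET above and 1.06% with HET below WT, and the difference was 0.34 without HET-2 and 0.26 without WT-3. *Cited1* was at 0.25 (SE 0.15), *Six2* at 0.20 (SE 0.16) and *Pax2* at -0.22 (SE 0.20). Without WT-3, *Six2* was at 0.016 and *Pax2* at -0.44, while *Pax2* was at -0.064 without WT-1 and -0.080 without HET-2. Leaving out WT-3 also took the members above 0 from 7 to 4 of 9, where 52.4% of all loci were above 0 with every library included. The HET libraries shared a further feature: *Xist* was at 1.10 FPKM in HET-1 and 1.25 FPKM in HET-2, against at most 0.0377 FPKM in the 5 other libraries without high *Xist*. Whether RNA or reads passed between the HET libraries was not tested, so their independence, which the *Osr1* s.d. of 0.679 FPKM assumes, is not known. The same limit holds for every member in MUT against HET, which uses the same HET libraries.

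The members' values followed individual libraries. MUT-3 was the highest of the 9 libraries for 6 of 9 members, while it was the highest for 5.50% of all loci with a mean of at least 5 FPKM, and the members summed to 476 FPKM in it, a library with a relative depth of 0.611. It was also the highest for 5 of 10 ureteric bud genes and for 4 of 20 other cap mesenchyme genes. For 18 genes of committing progenitors and renal vesicles and 13 stromal progenitor genes, MUT-3 was the highest for 0. WT-3 was the lowest for 4 of 9 members, against 19.6% of all loci, and the members summed to 302 FPKM in it. WT-3 also lay below the mean of the 9 libraries for every member but *Tmem100*. The 420 loci with a transcript GC content of at least 60% had a median log2 deviation of -0.20 in WT-3 and -0.13 in HET-3, and of 0.02 to 0.08 in the other 7 libraries. *Six2* (61.2%), *Cited1* (62.4%), *Pax2* (62.2%) and *Uncx* (64.6%) are in that GC class. The part of GC content and depth in these library differences was not tested beyond the GC correction given above.

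**Figure D3:**
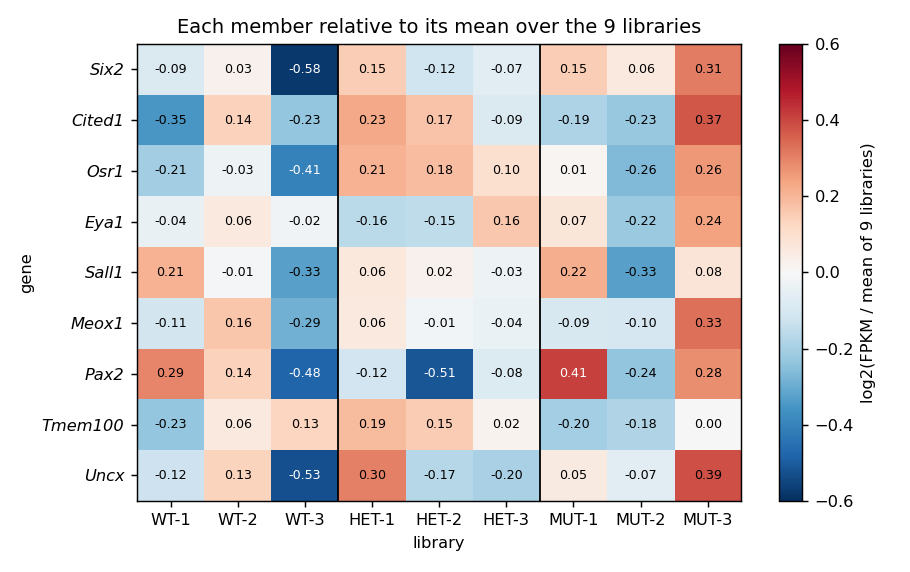
Log2 deviation of each regulator (rows) in each library (columns) from its mean over the 9 libraries, with the value written in each cell. MUT-3 is above the mean for 8 of 9 genes and WT-3 for 1, *Tmem100*.

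Pairs of members tended to move in the same direction from library to library. Of 36 pairs, 30 had a Pearson r above 0 over the 9 libraries and 8 had an r above 0.7, with a median of 0.48, and after each genotype mean was taken out 33 were above 0 with a median of 0.54. *Six2* and *Uncx* were closest (r = 0.93), and *Pax2* and *Tmem100* were farthest apart (r = -0.62). These are descriptions over 9 libraries that share their depth and GC differences. The loci most like *Six2* were *Foxd2* (r = 0.97), *Rspo1* (r = 0.97) and *Phlda1* (r = 0.95), and *Foxd2* (r = 0.96) was also among the 3 most like *Uncx*, with *Rrs1* and *Trim27*. *Tcf7l1*, which encodes a TCF/LEF family factor, was most like *Pax2* (r = 0.98), ahead of *Nckap5l* and *Msi1*. The others were *Mtmr14*, *Eif5a* and *Stmn1* for *Cited1*, *Dbn1*, *Tgif1* and *Cldn3* for *Osr1*, *Kifap3*, *Usp38* and *Capn6* for *Eya1*, *Arhgef2*, *Enc1* and *Akap1* for *Sall1*, *Ntsr1*, *Zfp580* and *Gdf1* for *Meox1* and *Mrpl44*, *Ptdss2* and *Zbtb8a* for *Tmem100*.

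Ratios within a library do not depend on its scaling, so each was taken against *Six2*. They can still carry the GC differences between libraries, as transcript GC content was 61.2% for *Six2*, 57.0% for *Osr1* and 46.2% for *Eya1*. The ratios were not GC-corrected, so the part of GC content in them was not tested. *Osr1*/*Six2* was 0.156±0.0149 in MUT and 0.198±0.0169 in HET, with no overlap between the groups (exact permutation p = 0.1, 0.5 after Benjamini-Hochberg adjustment over 15 tests). *Eya1*/*Six2* was 0.215±0.0179 in MUT and 0.277±0.0602 in WT, and *Pax2*/*Six2* was 0.516±0.0705 in HET and 0.688±0.0783 in WT. Both were again without overlap, with the same exact permutation p of 0.1 and the same 0.5 after adjustment. A p of 0.1 is what any 3 against 3 libraries without overlap give. The WT ratios of *Eya1*/*Six2* were 0.243, 0.242 and, in WT-3, 0.347, and the log2 difference was -0.35 with it and -0.18 without it. *Cited1*/*Six2*, which sets the least committed cells against all progenitors, was 1.15±0.236 in WT, 1.18±0.131 in HET and 0.961±0.150 in MUT, with overlap throughout. *Wnt4*/*Six2*, which sets a gene of differentiating progenitors against *Six2*, was 0.370 in WT and HET and 0.354 in MUT.

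**Figure D4:**
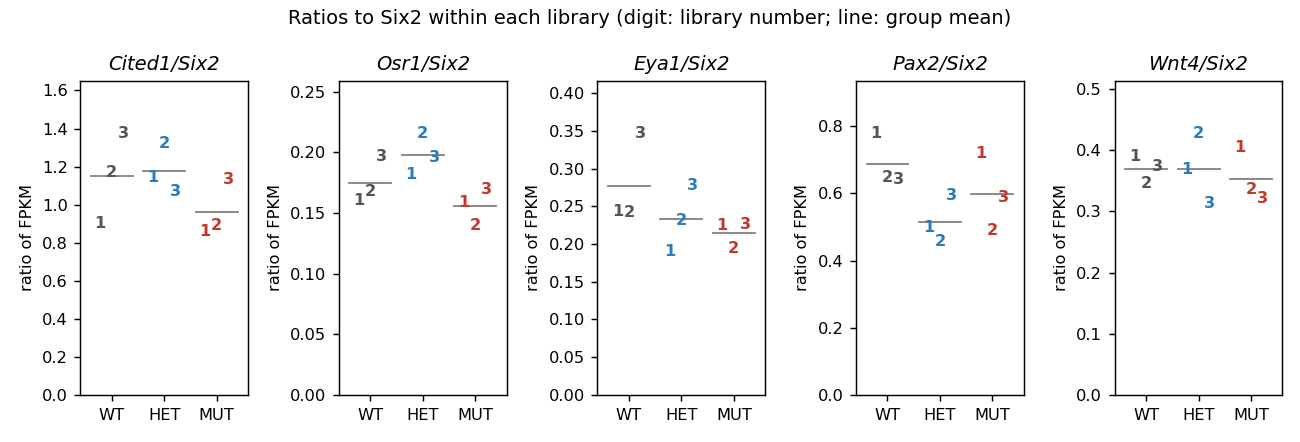
Ratio of the FPKM of *Cited1*, *Osr1*, *Eya1*, *Pax2* and *Wnt4* to that of *Six2* within each library (vertical axes, from 0), with the genotype mean as a line. *Osr1*/*Six2* does not overlap between MUT and HET.

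Other genes of the cap mesenchyme were read beside the members, and none was called in any comparison. Of 27 such genes, 20 were tested, and 14 were above 0 in MUT against HET with a median log2 fold change of 0.08, where 45.9% of all loci were above 0. In MUT against WT, 19 of the 20 were above 0, against 48.7% of all loci. The lowest p values were for *Hoxd11* (0.31, SE 0.13, unadjusted p = 0.0368), *Bmp7*, a growth factor for progenitors (0.21, SE 0.10), *Gdf11* (0.31, SE 0.16) and *Gas1* (0.20, SE 0.12), with limma adjusted p = 0.738 for each. *Bmp7* was 29.2±0.972 FPKM in MUT and 25.0±1.33 FPKM in HET, and with *Gas1* it was 1 of 2 genes of the list with MUT above HET without overlap, that is 2 of 20 against 5.19% of all loci. WT-3 was the lowest library for 12 of the 20.

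Of 20 genes of committing progenitors and renal vesicles, 18 were tested, with 8 above 0 and a median of -0.0044 in MUT against HET. *Hey1*, a Notch target, was 27.6±2.18 FPKM in MUT, 33.7±2.35 FPKM in HET and 31.1±1.44 FPKM in WT (-0.28 against HET, unadjusted p = 0.0268, limma adjusted p = 0.738). *Dkk1*, a secreted WNT inhibitor, was 14.6 to 15.4 FPKM in MUT, 18.1±1.94 FPKM in HET and 17.4±1.40 FPKM in WT (-0.25 against HET, unadjusted p = 0.0376, limma adjusted p = 0.738). All 3 MUT libraries were below all HET and all WT libraries for both genes. For *Hey1* the margin against WT was narrow, at 29.51 FPKM in MUT-1 and 29.55 FPKM in WT-2. They were the 2 of 18 with MUT lower without overlap in each comparison. Over all loci, MUT was below HET without overlap for 4.5% and below WT for 1.34%. Both were named for their small p in MUT against HET. *Cdh6* (0.57) and *Lef1* (0.22) were above 0 in MUT against HET with overlapping libraries.

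Of 11 ureteric bud genes, not all of them restricted to the tips, 10 were tested and 6 were above 0 in MUT against HET. These were led by *Spry1*, an inhibitor of RET signalling (0.20), *Emx2* (0.15), *Gata3* (0.15) and *Wnt9b*, the bud signal to the cap (0.11). All 10 were above 0 in MUT against WT, and WT-3 was the lowest library for 7 of them. The 13 genes listed as stromal progenitor genes, not all of them restricted to the stroma, were all tested, and 8 were above 0 in MUT against HET. *Dchs1*, an atypical cadherin, was 15.8±2.78 FPKM in MUT and 12.4±0.506 FPKM in HET (0.31, unadjusted p = 0.0317, limma adjusted p = 0.738). *Foxd1* (0.17) and *Dchs1* were the 2 of 13 with MUT above HET without overlap, against 5.19% of all loci. The WT libraries of *Dchs1* spread across both groups, at 17.0, 14.9 and 9.68 FPKM. *Fat4*, its partner, was at 0.21. The steroidogenic and gonad markers summed to 3.31 to 5.94 FPKM in every library and had no gene at the minimum. Most of each sum came from a locus that joins *Insl3* with *Jak3*, which is not such a marker, at 2.44 to 3.96 FPKM.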

How the data were processed

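The 9 libraries were RNA-seq of whole kidneys. Per the submitters' processing notes, the authors used STAR, Cufflinks and Cuffdiff with mm10, with versions and annotation not given in the sources used here. The authors deposited FPKM per locus, which are not counts, so read depth is not known and no interval for counting error was computed. The 3 columns of genotype means by the authors were not used. Genotypes came from the labels. The methods give 3 crosses for the 3 genotypes, and the labels do not tie libraries to crosses, so no cross entered a fit and p-values measure the spread between these libraries.

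FPKM were tested with limma 3.58.1 (R 4.3.3) with a trend, on log2(FPKM + 1), which understates changes of low genes, over loci whose group mean reached 5 FPKM in at least 1 of the groups compared, with Benjamini-Hochberg adjustment over all loci at 0.05. The procedure was also tested on simulated data. Exact two-sided permutation tests compared single values (scipy 1.17.1). GC content was that of the longest GENCODE M21 transcript, matched by name for 95.9% of loci. Members and gene lists were chosen with earlier results of these data known. Named genes were all members, *Ntn1* and *Foxd1*, up to 4 genes of each list with the smallest p for MUT against HET, and the 3 loci most correlated with each member, except that a gene the rule named is not reported here. Alternatives were other pseudocounts (0.1, 3) and minimums, 2 rescalings, 1 fit over 9 libraries, no trend, a replicate block, a GC correction and each library left out.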

Additional observations from a re-analysis of the deposited data

How the results depend on the processing

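No member was called in any setting. The count of members with an unadjusted p under 0.05 did depend on the setting, and reached 3 of 9 in MUT against HET without MUT-3. In that comparison *Pax2* had a limma unadjusted p of 0.0178 with the replicate block and 0.00398 without MUT-2. *Six2* in MUT against WT had a limma unadjusted p of 0.0348 in the fit over 9 libraries. Leaving out 1 library changed the count of called loci from 0 to between 0 and 3 in each comparison: 2 without HET-1, 1 without MUT-2 and 3 without MUT-3 for MUT against HET, 1 without MUT-2, 3 without WT-1 and 1 without WT-2 for MUT against WT, and 1 without HET-3, 3 without WT-2 and 1 without WT-3 for HET against WT. Of 459 recomputed log2 fold changes of members, 440 kept their direction, and 15 of 27 results kept it throughout. *Sall1* in MUT against HET turned to 0.0060 with quantile rescaling and 0.0036 with GC correction, alone or with the replicate block, and the cause was not tested. On leaving out 1 library, the ranges that crossed 0 were, for MUT against HET, -0.022 to 0.20 (*Eya1*), -0.14 to 0.13 (*Sall1*) and -0.091 to 0.11 (*Meox1*). For MUT against WT they were -0.057 to 0.27 (*Cited1*), -0.069 to 0.15 (*Eya1*), -0.11 to 0.19 (*Sall1*), -0.018 to 0.22 (*Meox1*) and -0.062 to 0.35 (*Pax2*). For HET against WT they were -0.15 to 0.0069 (*Eya1*), -0.077 to 0.19 (*Sall1*), -0.023 to 0.18 (*Meox1*) and -0.026 to 0.30 (*Uncx*). Log2 ratio differences crossed 0 for *Cited1*/*Six2* in HET against WT (-0.11 to 0.19), *Eya1*/*Six2* in MUT against HET (-0.24 to 0.033), and *Wnt4*/*Six2* in MUT against HET (-0.18 to 0.051) and HET against WT (-0.12 to 0.10).

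Same-numbered libraries did not deviate together (mean r -0.13 for HET with MUT, -0.02 for HET with WT and 0.09 for MUT with WT), and 2 of 9 libraries correlated best with their own number. A replicate block called 0 loci in each comparison, as without it, while loci with an unadjusted p under 0.05 went from 636 to 494, from 65 to 201 and from 108 to 233 in MUT against HET, MUT against WT and HET against WT. With 3 libraries a group, the intervals above give the range for each single difference and are not adjusted for the number of loci tested. That of *Osr1* in HET against WT lay above 1-fold (1.07- to 1.52-fold), with a limma adjusted p of 0.998.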

Other observations

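*Xist* was at 1.10 FPKM in HET-1 and 1.25 FPKM in HET-2, while the other 5 libraries with high Y-linked expression had 0.0117 to 0.0377 FPKM. HET-3, at 187 FPKM of *Xist*, had 0.305 FPKM of the Y-linked gene *Ddx3y* and 0.409 FPKM of *Eif2s3y*, where MUT-1, at 173 FPKM of *Xist*, had 0 and 0.0075 FPKM. Whether the HET libraries share RNA or reads was not tested.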
